A study of Mus musculus with 9 samples.

Results

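In CD73- cells of a mouse thymocyte culture, the peaks of 2 E proteins, E2A and HEB, were compared site by site and gene by gene. A peak on chromosomes 1 to 19, X or Y was called joint when it shared at least 1 bp with a peak of the other factor, and alone when it did not. The E2A list held 12434 peaks, of which 2048 were joint and 10386 alone. The HEB list held 9407 peaks, of which 2084 were joint and 7323 alone. Together they made up 21841 of the 79216 peaks in the 6 lists of the series. Each peak was given to the protein-coding gene whose span lay nearest to its midpoint, from 21887 such genes.

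The source was fetal liver progenitors of BALB/c mice lacking Rag2, whose T cell precursors cannot rearrange their receptor genes. DN3 cells were harvested at day 7 and given KN6, a gamma-delta T cell receptor, on a retroviral vector that also marks cells with YFP, overnight with IL7 and Flt3L. Sorted YFP+ cells then grew for 3 days on monolayers of OP9-DL1, stroma carrying a Notch ligand. Cells were fixed for 10 min in 1% formaldehyde, and those positive for Thy1, YFP and CD24, and negative for CD4 and CD8, were sorted into CD73- and CD73+ cells. The series had 9 libraries, with E2A, HEB and input chromatin of CD73- cells, of CD73+ cells and of DN3 cells, which by the design text were isolated apart from the transduced cultures. All of them share the loss of Rag2, and both sorted populations carry the same transduced receptor. By the labels CD73- cells had not yet lost the alpha-beta fate, while CD73+ cells were committed to the gamma-delta fate. Duplicates had been joined before peaks were called, so every value comes from 1 pooled list and has no replicate error. Intervals are 95% Wilson intervals and cover counting error only. The lists do not carry read depth, which is unknown. A gene said to have no peak was the nearest gene of none, and a peak close to it may be counted at a neighbour. Peak lists do not show which genes a cell expresses, so the sorted identity could not be checked against markers.

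E2A (gene Tcf3) and HEB (gene Tcf12) are basic helix-loop-helix proteins. They bind DNA as homodimers or heterodimers at E-boxes, the letters CANNTG, and Id proteins pair with them and keep them off DNA. In thymocyte precursors they act at T cell receptor, pre-T cell receptor and Notch pathway genes, and signals from the T cell receptor raise Id3 and lower their activity. Per the labels, each antibody was a purified rabbit serum to the final 12 amino acids of its protein.

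Few peaks lay over gene starts, and most start windows under joint peaks held the E-box letters, as did 62.8% of all windows. The window was the 250 bases before each RefSeq start site in build GRCm38.p6, with 21263 windows in all, and a peak had to touch it. The letters were searched over the whole window, so they need not lie under the peak. Joint peaks of both factors lay over 52 windows, E2A-alone peaks over 18 and HEB-alone peaks over 56. The windows below are those with the highest joint scores (1 window a gene, ranked by the lower of both scores), then the highest window of each factor alone. They are given 5′ to 3′ on the gene's strand, and capitals mark each CANNTG.
Sla2: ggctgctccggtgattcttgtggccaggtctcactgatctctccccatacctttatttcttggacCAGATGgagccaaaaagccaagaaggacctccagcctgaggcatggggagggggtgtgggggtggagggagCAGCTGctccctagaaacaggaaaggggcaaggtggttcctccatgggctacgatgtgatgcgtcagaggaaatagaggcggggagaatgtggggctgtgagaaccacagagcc
Dpcd: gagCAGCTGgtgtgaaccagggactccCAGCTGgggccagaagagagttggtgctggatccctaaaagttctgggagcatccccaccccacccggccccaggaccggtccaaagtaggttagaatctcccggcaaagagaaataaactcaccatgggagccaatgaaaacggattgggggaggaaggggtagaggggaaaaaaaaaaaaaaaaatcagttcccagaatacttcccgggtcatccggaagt
Arpp21: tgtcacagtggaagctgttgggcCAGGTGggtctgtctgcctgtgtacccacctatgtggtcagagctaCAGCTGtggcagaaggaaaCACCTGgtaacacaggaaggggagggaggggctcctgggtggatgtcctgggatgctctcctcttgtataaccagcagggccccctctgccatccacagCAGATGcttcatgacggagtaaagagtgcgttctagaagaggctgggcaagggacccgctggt
Gm13285: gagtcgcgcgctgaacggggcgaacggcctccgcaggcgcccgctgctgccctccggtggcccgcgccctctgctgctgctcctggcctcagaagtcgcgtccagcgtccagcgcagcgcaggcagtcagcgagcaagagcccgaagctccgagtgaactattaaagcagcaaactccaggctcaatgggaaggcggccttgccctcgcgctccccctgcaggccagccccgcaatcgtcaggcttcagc
Cd2ap: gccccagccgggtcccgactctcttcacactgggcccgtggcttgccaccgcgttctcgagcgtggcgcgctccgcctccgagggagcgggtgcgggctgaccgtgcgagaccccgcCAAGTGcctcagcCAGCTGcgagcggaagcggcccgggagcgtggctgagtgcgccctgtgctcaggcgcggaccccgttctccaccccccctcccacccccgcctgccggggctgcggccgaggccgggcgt
Adamtsl2: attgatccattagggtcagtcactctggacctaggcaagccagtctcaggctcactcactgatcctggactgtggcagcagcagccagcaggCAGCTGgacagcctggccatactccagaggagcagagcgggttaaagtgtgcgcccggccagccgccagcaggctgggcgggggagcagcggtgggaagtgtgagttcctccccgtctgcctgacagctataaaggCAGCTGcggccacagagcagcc
Tob1: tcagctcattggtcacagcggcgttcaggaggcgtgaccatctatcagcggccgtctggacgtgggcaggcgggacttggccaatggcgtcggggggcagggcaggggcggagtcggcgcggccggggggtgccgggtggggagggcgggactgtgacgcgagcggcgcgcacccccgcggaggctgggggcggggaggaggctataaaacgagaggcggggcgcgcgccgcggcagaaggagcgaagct

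Sla2, which encodes an adaptor that dampens T cell receptor signals, has its window at chr2:156887222-156887471 on the minus strand, under joint peaks with a MACS score, larger for a stronger peak, of 378 for E2A and 386 for HEB. It holds 2 E-boxes, 1 of them CAGCTG. The window of Dpcd lies at chr19:45560335-45560584 on the plus strand, with scores of 430 for E2A and 373 for HEB, and both of its E-boxes are CAGCTG. That of Arpp21, a gene of early thymocytes and neurons, lies at chr9:112217262-112217511 on the minus strand with scores of 303 for E2A and 396 for HEB, and has 4 E-boxes. The Cd2ap window, at chr17:42876425-42876674 on the minus strand, had 236 for E2A and 433 for HEB, and holds 2 E-boxes. The peaks reach into only part of it, and both E-boxes lie outside them. Cd2ap encodes an adaptor of the T cell adhesion receptor CD2.

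The window of Gm13285, at chr4:88800070-88800319 on the plus strand, had joint scores of 347 for E2A and 260 for HEB and contains no CANNTG. It lies in a 1 Mb block of chromosome 4 that held 18 joint sites. Adamtsl2, at chr2:27079129-27079378 on the plus strand, had the highest E2A-alone window with a score of 103. Both of its E-boxes are CAGCTG, but the peak covers only part of the window and the first of them lies outside it. Tob1, an antiproliferative gene, had the highest HEB-alone window at chr11:94211204-94211453 on the plus strand. Its score was 389, and these 250 bases, which the peak covers in part, hold no CANNTG.

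CANNTG stood in 41 of the 52 joint windows (78.8%, interval 66.0 to 87.8), 16 of the 18 E2A-alone windows (88.9%), 39 of the 56 HEB-alone windows (69.6%, interval 56.7 to 80.1) and 13356 of all 21263 windows (62.8%). The pattern reads the same on both strands. Of the joint windows, 16 with only 8 different sequences lay in 1 Mb blocks that held 10 or more joint sites, and 7 of these 16 had the letters. Among the other 36 joint windows, 34 had them (94.4%, interval 81.9 to 98.5). CAGCTG, one form of CANNTG, was found in 15 joint windows (28.8%), 6 E2A-alone windows (33.3%), 8 HEB-alone windows (14.3%) and 12.1% of all windows. CACCTG, counted with its reverse complement CAGGTG, was found in 19 joint (36.5%), 11 E2A-alone (61.1%), 23 HEB-alone (41.1%) and 16.9% of all windows. Mean GC content was 60% in joint, 59.3% in E2A-alone, 63.6% in HEB-alone and 55.5% in all windows, and its part in these shares was not tested.

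The overlap of E2A and HEB rose steeply with the score of a peak. The deposited score is 10 times the negative log10 of the p-value that MACS gave a peak against input. It starts at 50 in these lists and ranks peaks within 1 list. Over all peaks, 16.5% of E2A peaks (interval 15.8 to 17.1) and 22.2% of HEB peaks (interval 21.3 to 23.0) were joint. At scores of 50 to 60 the joint share was 6.56% of 6932 E2A peaks and 9.27% of 4132 HEB peaks. At 200 to 400 it was 97.4% of 273 E2A peaks and 89.3% of 345 HEB peaks. All 25 E2A peaks and all 39 HEB peaks of 1000 or more were joint. Low-scoring peaks were mostly alone and the highest were shared. Of strong peaks, meaning a score of at least 100, 894 of 1093 for E2A (81.8%) and 998 of 1348 for HEB (74.0%) were joint. That left 199 strong E2A peaks and 350 strong HEB peaks without a partner. In the other stages the joint share of all peaks was 44.1% for E2A and 46.0% for HEB in DN3 cells, and 6.75% for E2A and 14.8% for HEB in CD73+ cells. These lists differ in length and in their scores, and depth cannot be compared.

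**Figure D1:**
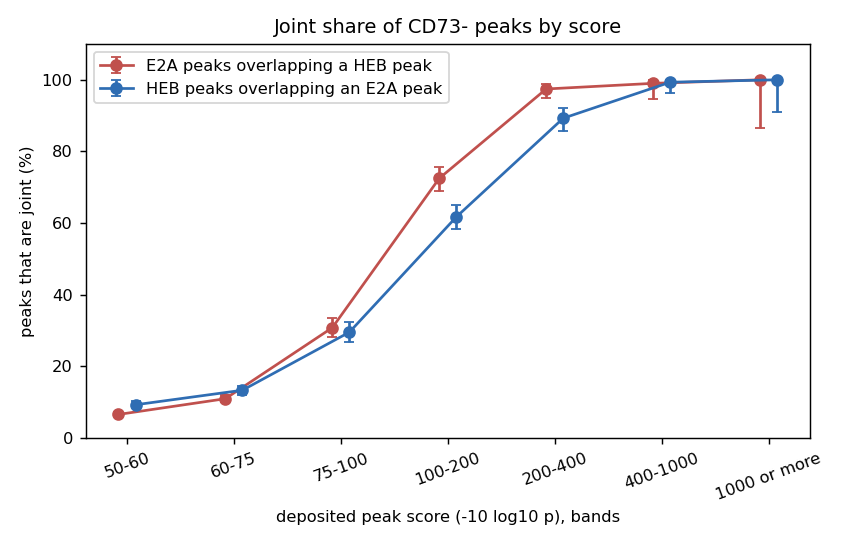
Share of CD73- peaks that overlap a peak of the other factor (y axis, percent) in bands of the deposited score (x axis), E2A in red and HEB in blue, with 95% Wilson intervals. The share runs from 6.56% for E2A and 9.27% for HEB at 50 to 60 to all peaks of both factors at 1000 or more, and at 100 to 200 it is 72.5% for E2A and 61.7% for HEB.

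Overlapping peaks formed 2164 pairs and 1968 joint sites, of which 1818 held 1 peak of each factor. The median pair shared 148 bp and its midpoints lay 38 bp apart, and 78.7% of pairs had midpoints within 100 bp. Only 46 pairs shared under 25 bp. A further 134 E2A-alone peaks and 154 HEB-alone peaks lay within 100 bp of the other factor's peak without touching it. Of the sites, 712 (36.2%) were strong in both lists, 166 for E2A only, 257 for HEB only, and 833 (42.3%) in neither. Across sites the scores of both factors had a Spearman rank correlation of 0.70, as a description, since both were called against the same input chromatin. It was 0.72 among the sites strong in both and 0.12 among those strong in neither.

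**Figure D2:**
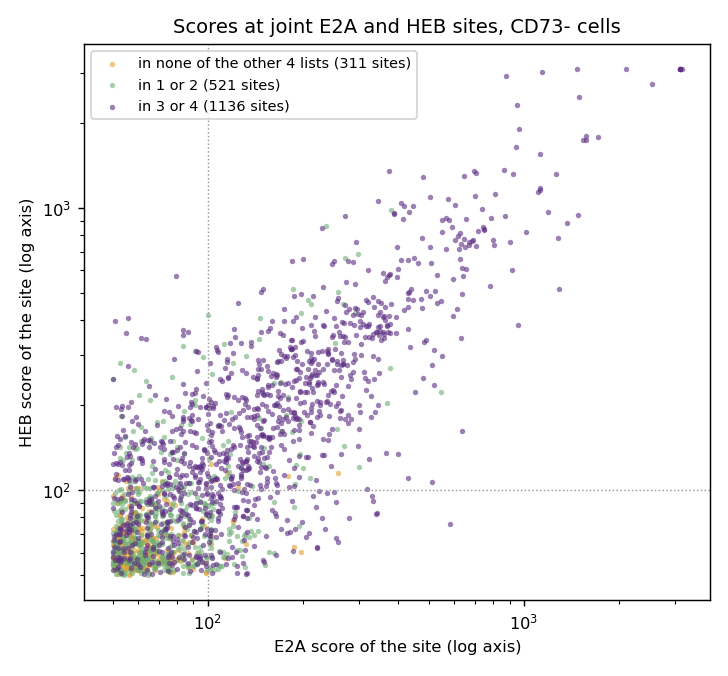
Each point is 1 of the 1968 joint sites, with its highest E2A score (x axis) against its highest HEB score (y axis), both on log axes, coloured by how many of the 4 lists of the other stages overlap it. Dotted lines mark a score of 100; 288 of the 311 sites found in no other list lie in the lower left corner, while 467 of the 616 sites found in all 4 lie in the upper right.

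The highest joint sites lay partly in or near genes and partly far from any. The first in both lists, at chr15:75085495-75087062, lay 21.9 kb from Ly6c2, a surface antigen gene of myeloid and T cells, with 3156 for E2A and 3100 for HEB. The value 3100 is shared by 4 E2A and 7 HEB peaks, so ranks among them are ties. Of neighbouring sites on chromosome 2, over 1 Mb from any protein-coding gene, those at chr2:98662161-98663096 and chr2:98666229-98667425 had 3100 in both lists. Others lay between them, at chr2:98663639-98664169 (1566 for E2A and 1805 for HEB) and chr2:98664867-98665319 (1264 and 1319). Sites 116 kb from Gm2244 on chromosome 14 and over 100 kb from Esp38 on chromosome 17 had the same tied values. Inside gene spans, Ndufaf6, a mitochondrial complex I assembly factor, held a site of 2101 for E2A and 3100 for HEB. Ccnd3, which encodes the cyclin D3 needed for thymocyte expansion, held a site in its span at chr17:47541886-47542742 with 1486 for E2A and 2466 for HEB. B4galt1, a galactosyltransferase gene, had 1473 for E2A and 3100 for HEB at a site 21.9 kb away. Dyrk1a, which encodes a kinase that promotes cell quiescence, had 1713 for E2A and 1785 for HEB at 3.32 kb. Rpusd4 and Rab10 were the nearest genes of the other highest sites, at 29.5 kb and 137 kb. All of these sites were present in all 6 lists. The placing of reads of repeated sequence is not given in the sources used here, and its part in these scores was not tested.

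Over all peaks, joint peaks lay closer to genes than peaks of either factor alone, and HEB-alone peaks closer than E2A-alone peaks. Among strong HEB peaks the order depended on the measure. A larger share of alone peaks lay in gene spans, and a larger share of joint peaks within 1 kb of a start site. In the span of a protein-coding gene lay 38.2% of joint E2A peaks, 27.4% of E2A-alone peaks, 38.1% of joint HEB peaks and 34.2% of HEB-alone peaks. Within 1 kb of a start site were 5.46% of joint E2A peaks (109 of 1998, leaving out a chromosome without start sites in the table used), 0.893% of E2A-alone peaks (interval 0.727 to 1.10), 5.76% of joint HEB peaks and 2.39% of HEB-alone peaks (interval 2.06 to 2.78). More than 100 kb from any gene were 20.2%, 34.0%, 20.3% and 27.1% of the same classes. Among strong E2A peaks, 41.3% of joint peaks (interval 38.1 to 44.5) and 37.2% of E2A-alone peaks (interval 30.8 to 44.1) lay in a gene span, and 17.0% and 21.6% lay more than 100 kb from any gene. Among strong HEB peaks, 43.5% of joint peaks (interval 40.4 to 46.6) and 48.6% of HEB-alone peaks (interval 43.4 to 53.8) lay in a gene span, and 15.3% and 12.9% lay more than 100 kb away. The intervals for gene spans overlapped within each factor. Within 1 kb of a start site were 6.78% of joint (interval 5.37 to 8.54) and 5.26% of alone (interval 3.35 to 8.17) strong HEB peaks. For strong E2A peaks these shares were 5.51% (interval 4.18 to 7.23) and 2.07% (interval 0.809 to 5.21).

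By nearest peaks, 1496 genes had a joint peak, 6.84% of the 21887. A further 2477 had E2A-alone peaks only (11.3%), 1898 had HEB-alone peaks only (8.67%), and 1640 had peaks of both factors that never overlapped (7.49%). No peak was nearest to the remaining 14376. The order of both single-factor classes depended on weak peaks: with peaks scoring at least 100 alone, 230 genes were E2A alone and 439 HEB alone. A joint site strong in both lists was nearest to 628 genes (2.87%). Most genes of the joint class, 1263, had a single joint site, and 54 had 3 or more. Genes with a peak were longer than those without: the median span was 45.7 kb in the joint class, 28.5 kb with E2A alone, 29.7 kb with HEB alone, 54.0 kb with both never joint and 12.8 kb with none. When genes were split by span into 10 equal classes, 19.8% of the longest and 3.20% of the shortest had a joint peak. The median span of a list's genes, given below for some lists only, is to be set against the 17.2 kb of all genes. Counts of a list or family are to be set against the 6.84% joint, 11.3% E2A alone and 8.67% HEB alone of all genes. A peak is named with the gene nearest to it, which can be far away where no distance is given.

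Counting all peaks, genes of T cell development were more often joint or HEB alone than E2A alone, as were those of all 30 lists. Pooled after their values were seen, 8 lists (pre-T cell receptor, receptor complex, receptor signal response, lineage factors, Notch, E proteins, gamma-delta effectors and recombination) held 138 genes, of which 31 were joint (22.5%), 8 E2A alone (5.80%) and 30 HEB alone (21.7%). The same shares of all genes were 6.84%, 11.3% and 8.67%, and the median span of the 138 was 25.7 kb. A joint site strong in both lists was nearest to 16 of them (11.6%, against 2.87% of all genes). At scores of at least 100 in each list, E2A-alone genes were 2 in the signal response list, 1 in the Notch list and 0 in the others. HEB-alone genes then ranged from 0 (Notch, E proteins) to 4 (lineage factors). Of all genes, 230 were then E2A alone and 439 HEB alone. The single-factor shares of the 138 were not pooled at that score, so their contrast covers all peaks only. Among the 75 genes of the B, myeloid, erythroid, stromal and liver lists, 8 were joint (10.7%), 11 E2A alone (14.7%) and 6 HEB alone (8.00%). These 5 lists were also pooled after their values were seen and leave out the lists of NK and innate lymphoid markers, with 2 joint, 1 E2A-alone and 4 HEB-alone genes of 15, and of synaptic and neuronal genes, with 14, 2 and 1 of 25. Id2, Eomes, Rora, Tbx21 and Zbtb16 of the NK list are also on the T cell development lists. Across all 30 lists, which include these 8, 104 of 528 genes were joint (19.7%), 49 E2A alone (9.28%) and 81 HEB alone (15.3%). This is the same order of classes as among the 138. The joint share was above that of all genes in 26 of the 30 lists. A raised joint share was thus not particular to the lists of T cell development.

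**Figure D3:**
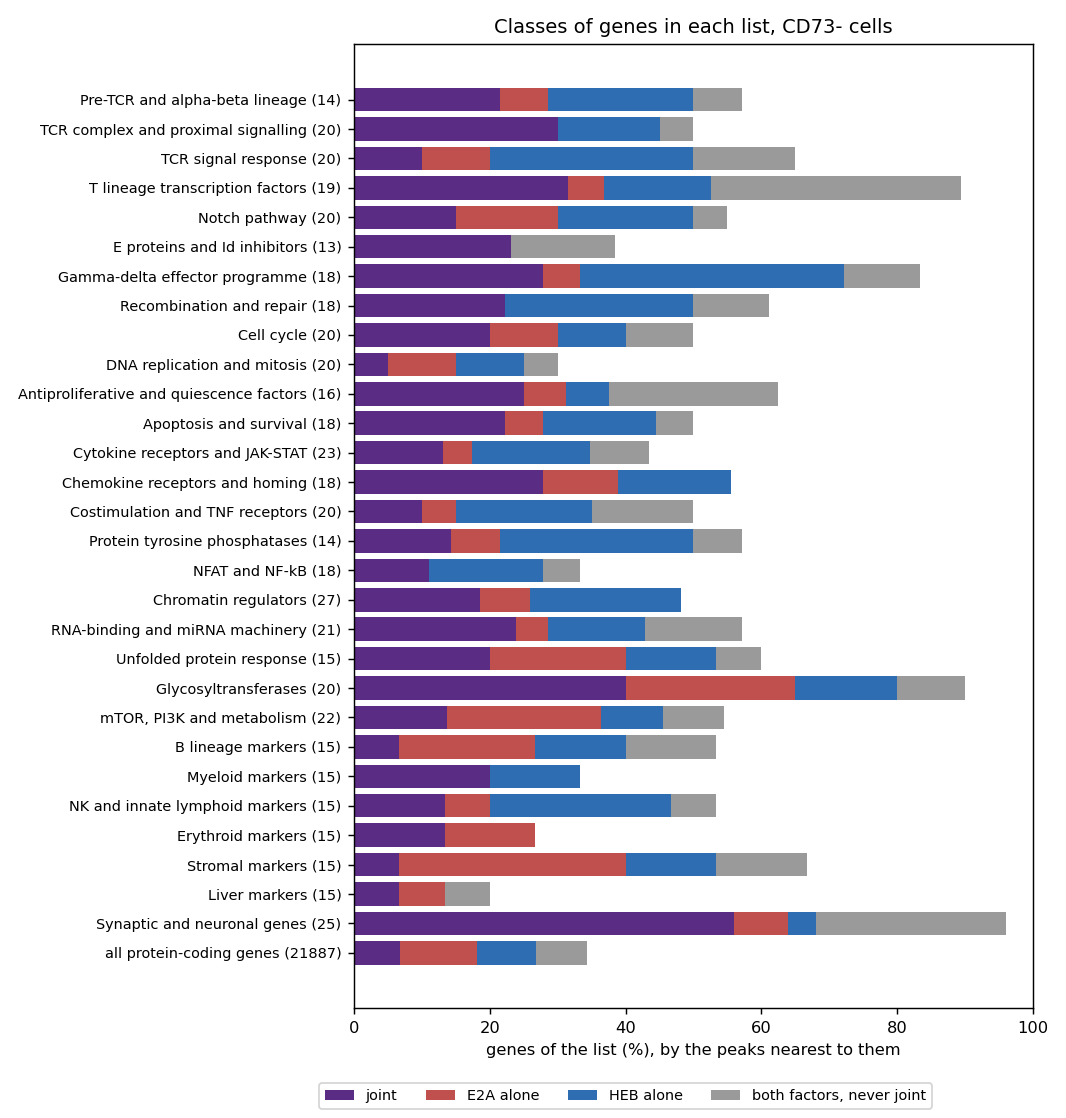
Share of the genes of each list shown (x axis, percent; number of genes in parentheses) that had a joint peak, E2A-alone peaks only, HEB-alone peaks only, or both factors never joint, with all 21887 protein-coding genes at the bottom. All genes stand at 6.84% joint, 11.3% E2A alone and 8.67% HEB alone, and the gamma-delta effector list at 27.8%, 5.56% and 38.9%.

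The receptor genes Notch1 and Notch3 carried some of the highest joint sites among T cell genes. Notch3, a receptor high in DN3 cells, held a site in its span with 505 for E2A and 725 for HEB, present in all 4 lists of the other stages. Notch1, the receptor that commits cells to the T lineage, had 347 for E2A and 201 for HEB at a site 9.83 kb away, present in both DN3 lists and the CD73+ HEB list. Hes1, a Notch target and repressor, had a weak site of 71.8 for E2A and 86.2 for HEB at 156 kb, shared with the DN3 HEB list only. Of the Notch pathway, 3 of 20 genes were joint, 3 E2A alone (Maml1, Dll1 and Jag1, at 7.37, 9.42 and 564 kb) and 4 HEB alone. The HEB-alone genes included Rbpj, the DNA-binding partner of Notch, with a score of 72.5, and Il2ra, which encodes CD25, with 60.7. Notch2, another receptor gene, had no joint site and was HEB alone at 60.2. Mfng, which glycosylates Notch, had an E2A peak of 180 and a HEB peak of 97.1 that did not overlap. No peak was nearest to Dtx1.

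Of 19 T lineage transcription factors, 6 were joint, 1 was E2A alone, 3 were HEB alone and 7 had both factors apart, with a median span of 88.0 kb. Tcf7, encoding TCF-1, had a joint site 30.9 kb away with 191 for E2A and 286 for HEB. Gfi1, a repressor, had one in its span with 233 for E2A and 382 for HEB. The other joint members were Ets1 (E2A 131, HEB 201), Runx1 (E2A 133, HEB 142, at 327 kb), Ikzf2 (E2A 80.5, HEB 199, at 74.4 kb) and Lef1 (E2A 61.6, HEB 109, at 163 kb). Except for the Gfi1 site, which lacked a CD73+ E2A peak, the highest joint site of all of these genes was found in all 4 lists of the other stages. Gata3 and Bcl11b, both needed for T lineage commitment, had no joint site: Gata3 had an E2A peak of 80.7 and a HEB peak of 112, at 263 kb and 262 kb, and Bcl11b an E2A peak of 50.1 and a HEB peak of 109, the second in its span. Runx3 likewise had 65.4 for E2A and 61.4 for HEB apart.

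Among the E proteins and their inhibitors, Id2 stood out by its number of joint sites. Id2 is an inhibitor of E proteins and had 5 joint sites, the highest with 669 for E2A and 739 for HEB at 93.5 kb, and 5 HEB-alone peaks of up to 233. Id3, the inhibitor raised by T cell receptor signals, had an E2A peak of 51.5 at 43.3 kb and a HEB peak of 66.0 at 2.64 kb, and no joint site. Both of these Id3 peaks overlapped both DN3 lists and the CD73+ HEB list. Id4, another Id gene, had a joint site of 103 for E2A and 124 for HEB at 27.0 kb, found in no other list. Tcf12 itself held a weak joint site in its span, with 52.2 for E2A and 56.6 for HEB. Tcf4 had both factors apart, and no peak was nearest to Tcf3 or Id1. In all, 3 of 13 genes were joint, 0 E2A alone and 0 HEB alone.

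Of 8 constant genes of the T cell receptor loci, Trac and Trbc2 had joint peaks. The constant segments are not protein-coding entries of the reference, so they were searched within 10 kb. Near Trac, the alpha constant gene, E2A scored 577 and HEB 1074 at overlapping peaks, and near Trbc2, a beta constant gene, E2A scored 183 and HEB 317. The Trac peaks (E2A at chr14:54227060-54227878, HEB at chr14:54226997-54227889) lay 3.27 kb beyond the end of the gene's span, and the Trbc2 peaks 6.29 kb beyond. As background, both loci have an enhancer downstream of their constant genes at which E proteins are known to bind. Trgc1 had a HEB-alone peak of 62.1, Trgc3 of 58.2 and Trgc4 of 86.5, Trgc2 had both factors apart at 51.7 for E2A and 50.7 for HEB, and for Trdc and Trbc1 none was called. The gamma genes are near copies of each other, so their peaks may be split between them.

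The list of the receptor complex and its proximal signalling had 6 joint, 0 E2A-alone and 3 HEB-alone genes of 20. Its median span was 44.9 kb. Cd247, the zeta chain, had 102 for E2A and 282 for HEB in its span; Cd3g had 96.2 for E2A and 55.5 for HEB over its start; Lat, a signalling scaffold, had 97.3 for E2A and 138 for HEB; and Lck, a kinase, had 53.7 for E2A and 83.9 for HEB. The HEB-alone members were Grap2, Cd2 and Ubash3a, at 64.2, 77.9 and 83.6. Of the pre-T cell receptor and alpha-beta lineage list, 3 of 14 genes were joint (Arpp21 and Bcl2l1 among them), 1 was E2A alone (Themis) and 3 were HEB alone, Cd27 at 140, Cd69 at 86.5 and Cd8b1 at 77.2. No peak was nearest to Ptcra, which encodes the pre-T cell receptor alpha chain, or to Cd3e.

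Over all peaks, genes that answer to T cell receptor signals were more often HEB alone than joint, which did not hold among strong peaks. Of 20, 2 were joint, 2 E2A alone and 6 HEB alone (30%, against 8.67% of all genes), and their median span was 10.2 kb. With only peaks scoring at least 100 in each list, 1 was joint, 2 E2A alone and 1 HEB alone, and with the 1000 highest peaks of each list 1, 2 and 0. The HEB-alone members were the early growth response gene Egr1 at 64.8, 1.45 kb away, the MAP kinase phosphatase genes Dusp2 at 118, Dusp6 at 80.9, Dusp4 at 56.4 (119 kb away) and Dusp5 at 55.7, and the activation antigen gene Cd69. The peaks of Dusp2 and Dusp6 overlapped both DN3 lists and the CD73+ HEB list, and those of Egr1, Dusp4 and Dusp5 overlapped none of the other 4 lists. The Nr4a orphan receptors split: Nr4a1 had a joint site of 111 for E2A and 135 for HEB in its span, Nr4a3 an E2A-alone peak of 243 at 8.86 kb, and Nr4a2 both factors apart. Myc had a joint site of 343 for E2A and 82.8 for HEB at 222 kb. No peak was nearest to Egr2 or Egr3.

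**Figure D4:**
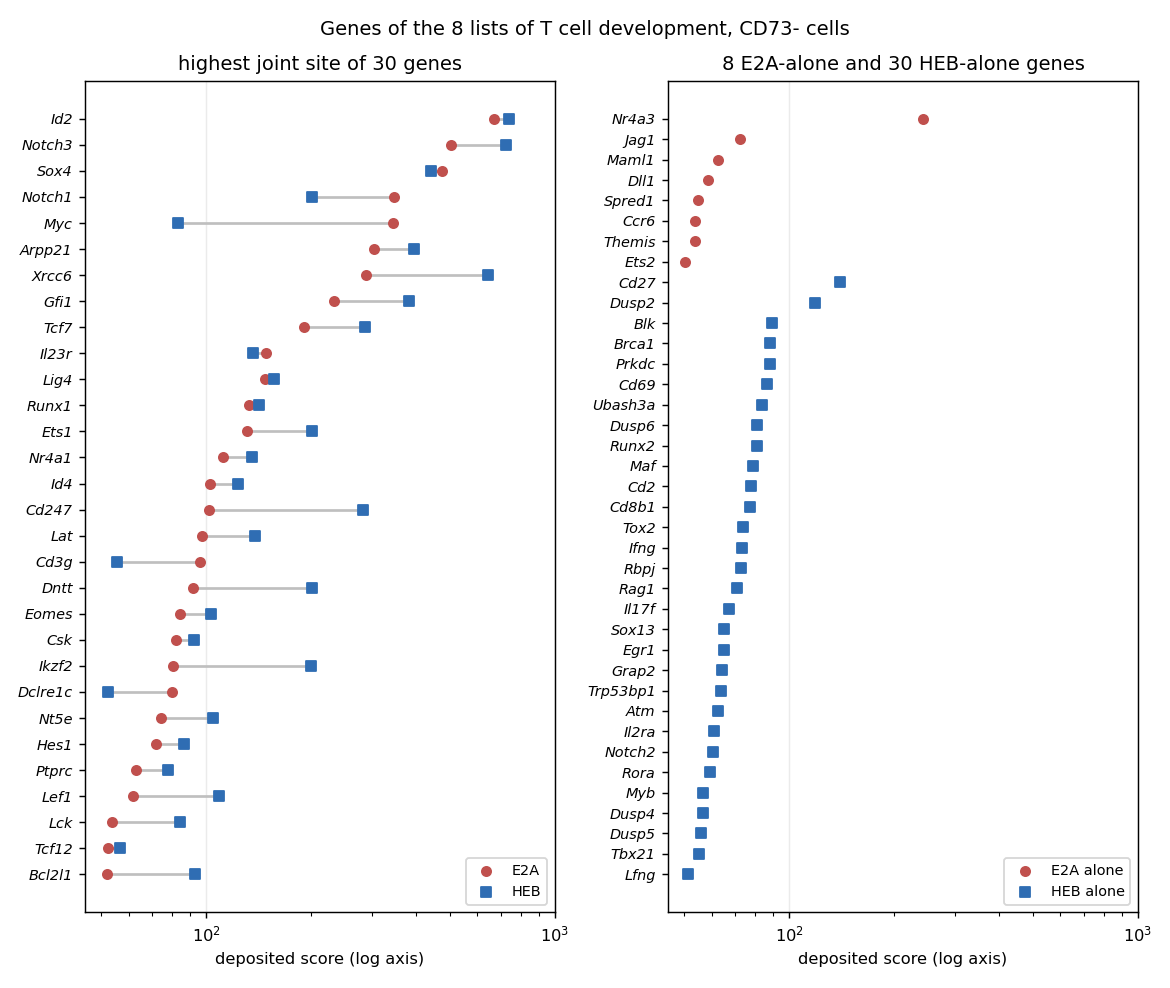
Deposited scores (x axis, log) of genes in the 8 lists of T cell development in CD73- cells. Left, the E2A (red circle) and HEB (blue square) scores at the highest joint site of 30 of the 31 joint genes, from Id2 at 669 for E2A and 739 for HEB down to Bcl2l1 at 51.8 and 92.9; right, the highest peak of 8 E2A-alone genes, led by Nr4a3 at 243, and of 30 HEB-alone genes, led by Cd27 at 140.

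The gamma-delta effector list had 5 joint, 1 E2A-alone and 7 HEB-alone genes of 18 (27.8%, 5.56% and 38.9%). With only peaks scoring at least 100 in each list, 3 were joint, 0 E2A alone and 2 HEB alone. Sox4, a factor of gamma-delta precursors, had a joint site 6.11 kb away with 475 for E2A and 442 for HEB, present in all 4 other lists. Il23r (149 for E2A and 136 for HEB), Eomes (83.9 and 103) and Nt5e, which encodes CD73 (74.2 for E2A and 104 for HEB at 231 kb), were also joint. The Nt5e site was also in the DN3 E2A list and both CD73+ lists. The HEB-alone members included the transcription factor genes Sox13 (65.1), Maf (78.7, at 282 kb), Rora (59.3, at 118 kb) and Tbx21 (55.2, at 12.4 kb). The others were the kinase gene Blk (89.3) and the cytokine genes Ifng (73.3, at 60.2 kb) and Il17f (67.1, at 14.5 kb). All 7 scored under 100, and the peaks of Sox13 and Blk overlapped a DN3 list.

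Of 18 genes of receptor gene recombination and DNA repair, 4 were joint, 0 E2A alone and 5 HEB alone, with a median span of 41.1 kb. Xrcc6, encoding the Ku70 end-joining protein, held a joint site in its span with 287 for E2A and 643 for HEB. Dntt, which encodes terminal transferase, had 91.4 for E2A and 201 for HEB at 6.83 kb, and Lig4, the end-joining ligase, 148 for E2A and 156 for HEB. Rag1 had a HEB-alone peak of 70.6 at 1.21 kb, found also in both DN3 lists and the CD73+ HEB list. No peak was nearest to Rag2, the gene lost in these mice. Prkdc, Atm, Trp53bp1 and Brca1 were the other HEB-alone members, at 62.5 to 88.4.

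Cell division genes held a few very high joint sites. Of 20 cell cycle genes, 4 were joint, 2 E2A alone and 2 HEB alone. Besides Ccnd3, E2f2, an activator of S phase genes, had 432 for E2A and 966 for HEB in its span, Ccne1, cyclin E1, had 339 for E2A and 82.3 for HEB, and Cdc25a had 86.2 and 72.6. Of 20 replication and mitosis genes, 1 was joint, Mcm2, a subunit of the replicative helicase, with 489 for E2A and 506 for HEB, 2 were E2A alone and 2 HEB alone. Of 16 antiproliferative and quiescence factors, 4 were joint, 1 E2A alone and 1 HEB alone. Btg2 had 590 for E2A and 858 for HEB at 7.53 kb, and Klf13 578 for E2A and 905 for HEB at 60.3 kb. Tob1 had its HEB peak of 389 and was the nearest gene of no E2A peak. The Tob1 peak overlapped all 4 lists of the other stages, E2A included.

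Among survival, cytokine and homing genes, joint sites included several of the strongest at named genes. Of 18 apoptosis genes, 4 were joint, 1 E2A alone and 3 HEB alone. The joint ones were the death genes Bcl2l11 (362 for E2A and 346 for HEB, 3 joint sites), Bbc3 (144 and 290) and Fas (95.1 and 77.4), and the survival gene Bcl2l1 (51.8 and 92.9). Cytokine receptor and JAK-STAT genes numbered 23, of which 3 were joint, 1 E2A alone and 4 HEB alone. The joint ones included Il6ra with 657 for E2A and 607 for HEB, and Socs3, a feedback inhibitor, with 619 for E2A and 794 for HEB. Il6st, the shared receptor chain gp130, was HEB alone at 160. No peak was nearest to Il7r. Of 18 chemokine receptor and homing genes, 5 were joint, 2 E2A alone and 3 HEB alone. Selplg, the selectin ligand PSGL-1, had 811 for E2A and 1116 for HEB at 0.16 kb. Cxcr4 had 226 for E2A and 199 for HEB. Ccr9, a thymic homing receptor, had a joint site of 108 for E2A and 308 for HEB at 10.3 kb and a HEB-alone peak of 359 at 12.7 kb.

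Glycosyltransferases had the largest joint share of the lists other than the neuronal one, 8 of 20 genes (40%), with 5 E2A alone and 3 HEB alone and a median span of 62.4 kb. B4galt1 led, and St8sia1 (298 for E2A and 420 for HEB), Galnt7 (254 and 380), Galnt2 (258 and 478) and St3gal1 (240 and 305) were strong in both. The E2A-alone members, St3gal4, St8sia6, Mgat5, Gcnt1 and Fut4, all scored under 65, and the HEB-alone ones, Mgat1 at 145, St3gal6 at 140 and St6gal1 at 121, all over 100. Among 27 chromatin regulators, 5 were joint, 2 E2A alone and 6 HEB alone, and the median span was 81.5 kb. Arid1b, a subunit of the BAF remodelling complex, was nearest to a site of 1137 for E2A and 3022 for HEB at 368 kb, and Chd7 held one of 362 for E2A and 444 for HEB. Of 21 RNA-binding and miRNA genes, 5 were joint, 1 E2A alone and 3 HEB alone, and the median span was 55.5 kb. Ago2, the slicing Argonaute, held 483 for E2A and 333 for HEB, and Zc3h12a, an mRNA nuclease, had 205 and 310 beside its span.

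The remaining signalling lists had 2 or 3 joint genes each. Costimulation and TNF receptors had 2 joint (Tnfrsf1a at 545 for E2A and 467 for HEB, and Cd28), 1 E2A alone and 4 HEB alone of 20, and the HEB-alone ones included Traf2 at 258 and Cd27. Tyrosine phosphatases had 2 joint, 1 E2A alone and 4 HEB alone of 14, led by Ptprk at 269 for E2A and 389 for HEB. The median span of these 14 was 66.7 kb. NFAT and NF-kB genes had 2 joint, 0 E2A alone and 3 HEB alone of 18, and Bcl3, an NF-kB cofactor, was HEB alone at 186. The unfolded protein response had 3 joint, 3 E2A alone and 2 HEB alone of 15. The mTOR, PI3K and metabolism list had 3 joint, 5 E2A alone and 2 HEB alone of 22, with a median span of 51.8 kb. Its 5 E2A-alone genes, Pik3cg, Rptor, Rictor, Slc2a1 and Slc2a3, scored 50.6 to 68.5, close to the minimum.

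Lists of other cell types had some joint genes too. B lineage markers had 1 joint, 3 E2A alone and 2 HEB alone of 15, myeloid markers 3, 0 and 2 of 15, erythroid markers 2, 2 and 0 of 15, stromal markers 1, 5 and 2 of 15, liver markers 1, 1 and 0 of 15, and NK and innate lymphoid markers 2, 1 and 4 of 15. The joint myeloid genes were Ly6c2, Itgam (366 for E2A and 135 for HEB) and Cebpb (115 kb away), and the median span of the myeloid list was 4.73 kb. The joint stromal gene was Thy1, by which these T lineage cells were sorted. The stromal E2A-alone genes, Col1a2, Pdgfra, Lum, Postn and Dll1, scored 51.5 to 75.3, and their highest peaks were in none of the other 4 lists. Synaptic and neuronal genes had 14 joint, 2 E2A alone and 1 HEB alone of 25, the largest joint share at 56.0%, and their median span of over 1 Mb is far above that of all genes. Pcdh9, a protocadherin gene, had 347 for E2A and 354 for HEB. 

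Among families taken by symbol, olfactory receptors had 16 joint (1.44%), 109 E2A-alone (9.82%) and 52 HEB-alone genes (4.68%) of 1110, and vomeronasal receptors 10 (2.82%), 68 (19.2%) and 29 (8.17%) of 355. Their genes are short, with median spans of 950 and 963 bp, and of the shortest class of all genes by span 3.20% were joint. Histone genes, of 496 bp median span, had 2 joint, 5 E2A-alone and 15 HEB-alone genes of 67 (2.99%, 7.46% and 22.4%), with no single-factor peak of 100 or more and no site strong in both lists. Ribosomal protein genes, of 3352 bp median span, had 6 joint (6.19%), 5 E2A-alone (5.15%) and 4 HEB-alone genes (4.12%) of 97. Their joint share was close to that of all genes, and both single-factor shares were lower. Cadherins and protocadherins, with long genes, had 17, 4 and 1 of 92, glutamate receptors 7, 5 and 3 of 27, and contactins and neurexins 6, 1 and 0 of 16. The last 2 families also have long genes, with median spans of 277783 and 525096 bp, and of the longest class of all genes 19.8% were joint. The shares of all genes were 6.84%, 11.3% and 8.67%. Zinc finger genes had 19, 33 and 36 of 397 (4.79%, 8.31% and 9.07%). Solute carriers had 18, 40 and 37 of 389 (4.63%, 10.3% and 9.51%), and potassium channels 8, 10 and 9 of 94 (8.51%, 10.6% and 9.57%). Ubiquitin-specific proteases had 2, 9 and 6 of 56 (3.57%, 16.1% and 10.7%), and keratins 0, 3 and 0 of 53. NADH dehydrogenase subunits had 3, 4 and 3 of 49, Kelch-like genes 5, 1 and 7 of 37, and Rgs genes 2, 4 and 2 of 23. Of the immune families, 100 CD antigens had 9, 9 and 10, and 83 interleukins and receptors 6, 7 and 8 (7.23%, 8.43% and 9.64%). The 31 TNF family genes had 2, 3 and 4 (6.45%, 9.68% and 12.9%), and 23 Ets and Runx factors 3, 3 and 3 (13.0% each).

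The highest single-factor peaks were far below the highest joint ones. The top E2A-alone peak, 444 in Stam2, an endosomal sorting gene, was found in the DN3 E2A list and both CD73+ lists. Prkcq, encoding the T cell kinase PKC theta, had an E2A-alone peak of 329 at 110 kb, Dennd2a one of 284 and Dip2b one of 207 in their spans, and all 3 genes also had a weaker HEB peak elsewhere. The peaks near 9530057J20Rik (289), Gm21119 (242) and Gm13275 (202) lay in dense blocks of joint sites. The top HEB-alone peaks were 402 in Hdac4, a histone deacetylase gene, 397 near Tgfbr1, a TGF-beta receptor gene, and 389 at Tob1. Luzp2, Ccr9, Trerf1, Gm15319 and Gse1 followed with 374, 359, 347, 341 and 313. The peak near Gm15319 also lay in a dense block of joint sites, and the one near Luzp2 was only 67 bp wide. Of these 8 HEB-alone peaks, those near Luzp2 and Trerf1 had no DN3 E2A peak and the others had one.

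Strong HEB-alone sites of CD73- cells were often sites with both factors in DN3 cells. Of the 350, 172 (49.1%, interval 43.9 to 54.4) overlapped a peak in both DN3 lists, 51 (14.6%) in the HEB list only, 20 (5.71%) in the E2A list only and 107 (30.6%) in neither. Of the 199 strong E2A-alone peaks, 50 (25.1%, interval 19.6 to 31.6) overlapped both DN3 lists, 25 (12.6%) the E2A list only, 15 (7.54%) the HEB list only and 109 (54.8%) neither. Of the 712 sites strong in both, 626 (87.9%) overlapped both DN3 lists and 10 neither. In the CD73+ lists, 70.8% of the 712 had both factors, 146 (20.5%) HEB only, 36 (5.06%) E2A only and 26 (3.65%) neither.

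Seen from the DN3 stage, HEB alone was called more often than E2A alone where a joint peak was no longer joint. Of 3881 strong DN3 E2A peaks that were joint with HEB, 936 (24.1%) had both factors in CD73- cells, 189 (4.87%, interval 4.24 to 5.59) E2A only, 550 (14.2%, interval 13.1 to 15.3) HEB only and 2206 (56.8%) neither. Among all CD73- peaks, 75.3% of joint and 9.66% of alone E2A peaks overlapped either DN3 list, as did 75.8% of joint and 21.3% of alone HEB peaks. At scores of 50 to 60 the same shares were 48.1% and 6.69% for E2A and 45.4% and 16.2% for HEB. In this band joint peaks thus matched DN3 peaks more often than alone peaks. The band holds the score of the counted factor only, and the partner of a joint peak could score higher. Of the 1968 joint sites, 616 overlapped all 4 lists of the other stages and 311 (15.8%) none, and of these 311, 288 were strong in neither list.

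**Figure D5:**
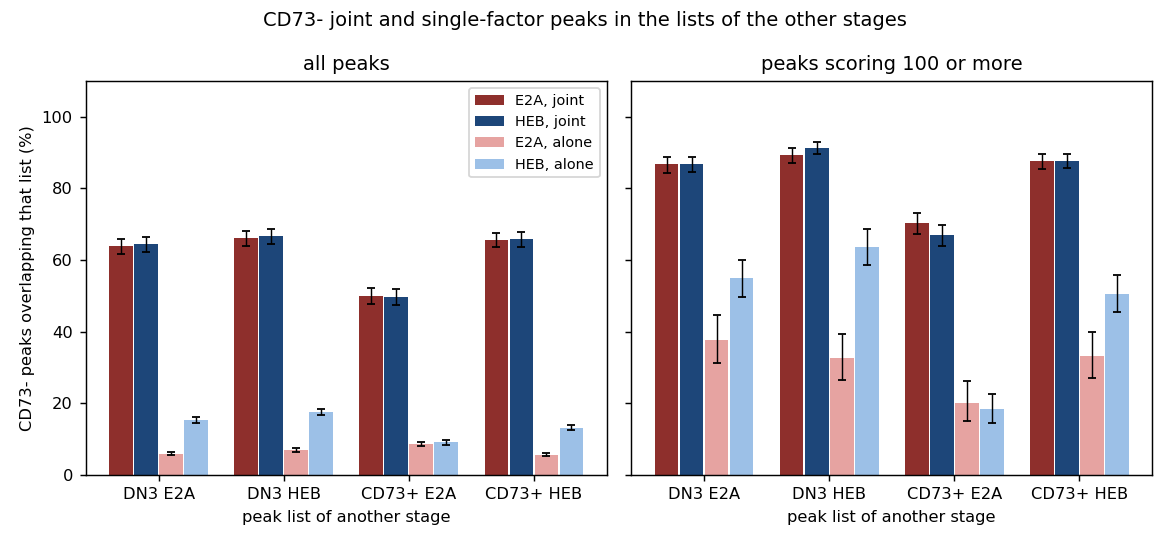
Share of CD73- peaks (y axis, percent) that overlap each peak list of the DN3 and CD73+ cells, for joint E2A, joint HEB, E2A-alone and HEB-alone peaks, with 95% Wilson intervals; left, all peaks, right, those scoring 100 or more. Among strong peaks, HEB-alone exceeds E2A-alone in both DN3 lists (54.9% against 37.7% for DN3 E2A, 63.7% against 32.7% for DN3 HEB).

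By gene, the same order of classes was seen. The highest joint site of 1125 of the 1496 joint genes (75.2%) overlapped a DN3 peak, against the highest peak of 211 of 2477 E2A-alone genes (8.52%) and 467 of 1898 HEB-alone genes (24.6%). In the 8 lists of T cell development it was 28 of 31 joint genes, 1 of 8 E2A-alone genes (Nr4a3) and 15 of 30 HEB-alone genes. In the neuronal list it was 8 of 14 joint genes, 0 of 2 E2A-alone genes and 0 of 1 HEB-alone gene.

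Some joint sites lay in dense blocks. The 1 Mb blocks with 10 or more joint sites numbered 7 and held 220 joint sites (11.2%), 54 of them strong in both. The block of chromosome 8 from 20 to 21 Mb held 112 with median scores of 77.6 for E2A and 74.0 for HEB, and the one of chromosome 6 from 47 to 48 Mb held 42. Gm21119 had 41 joint sites, Gm15319 32, Gm40363 24, 9530057J20Rik 23 and Gm40469 15, more than other genes. Without these blocks 15.1% of E2A peaks and 20.3% of HEB peaks were joint, and 1463 genes had a joint peak. How reads of repeated sequence were placed is not given in the sources used here, and its part in these counts was not tested.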

How the data were processed

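The authors' processing, per the submitters' processing notes, named Bowtie, HOMER and MACS 1.4.2 with build mm10; per the labels, duplicates were joined into 1 file, and mapping settings are not given in the sources used here. The deposited score of each peak, which per the authors' tool rises with the negative log10 p-value of the peak against input, was used unchanged to rank and filter peaks within a list. Lists were assigned to groups by cell and antibody name.

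Overlaps of at least 1 bp, nearest gene spans (RefSeq, GRCm38.p6) and the 30 gene lists (536 symbols, 528 matched) and 20 symbol families were computed in Python 3.11.15 with numpy 2.4.6, pandas 2.3.3 and scipy 1.17.1. Joint counts equalled those of bedtools 2.31.1, and the overlap method was tested on simulated data. With 1 pooled list a group no test across samples was possible, and shares have 95% Wilson intervals. The members, lists and comparisons were chosen with earlier results of these data known. Named genes follow a rule: the 12 best joint sites, the 8 highest peaks of each factor alone, up to 3 joint and 2 single-factor members of each list, the 5 genes with most joint sites, and a set of regulators; other genes named are members of lists described whole. Alternatives changed the score minimum, list length, overlap rule, peak width, sequences and gene assignment. Read depth is not in the files used here. The results of 1 list, 1 family and some genes are not reported here.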

Additional observations from a re-analysis of the deposited data

Results flagged for a closer look

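Peaks outside the sequences compared above were present in both lists. The CD73- E2A list held 145 peaks and the CD73- HEB list 151 on sequences other than chromosomes 1 to 19, X and Y, none of which entered the comparison of genes. Of these, 58.6% of the E2A peaks and 58.9% of the HEB peaks were joint, and the highest scored 1306 for E2A and 1765 for HEB. They are listed here because they lie in data that the comparison did not use, and no control list was available to set beside them.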

How the results depend on the processing

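No paired analysis was possible because the labels carry no replicate numbers and each group has 1 pooled list. The shares of joint peaks depended on the score kept. With both lists at scores of at least 100, 66.6% of E2A and 54.7% of HEB peaks were joint, and 631 genes were joint, 230 E2A alone and 439 HEB alone. With only the counted list at 100 or more, the shares were 81.8% and 74.0% and the genes 925, 132 and 254. With the 1000 highest peaks of each list they were 63.6% and 64.3%, with 558, 235 and 258 genes. At equal list lengths the shares were 20.0% for E2A and 20.5% for HEB. With overlap over 50% of both peaks they were 12.3% and 16.3%, with midpoints within 200 bp 15.8% and 21.2%, and with edges within 500 bp 19.8% and 26.7%. Chosen after seeing the data, leaving out dense 1 Mb blocks gave 15.1% and 20.3%, and keeping peaks that overlap another stage gave 47.6% and 45%, with 862 E2A-alone and 1014 HEB-alone genes. HEB-alone genes outnumbered E2A-alone genes at scores of at least 100 in both or in the counted list, among the 1000 highest peaks, at equal list lengths and among peaks shared with another stage, and were fewer in all the other settings run. The other 40 values of these results stayed within their limits. Of the values for members of single lists and for overlap with DN3 peaks, 149 moved and 415 did not. Most moves came from cuts by score. With both lists at scores of at least 100, 67 moved and 27 did not, and with the 1000 highest peaks 70 moved and 24 did not. In each other setting run for these values at most 5 moved. The joint share was above that of all genes in 24 to 28 of 30 lists under the 9 alternatives run for lists. Depth and replicate spread are unknown, which limits what a single peak near a score of 50 can show.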

Other observations

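Only 6 joint sites strong in both CD73- lists overlapped no list of the other stages, and the genes given are named after their values were seen. They included sites in Car10 (115 for E2A and 115 for HEB) and nearest to Id4, an Id family gene (103 and 124 at 27.0 kb), Wls, which carries Wnt ligands to the surface (258 and 115 at 60.7 kb), Gm36722 and Gm51593.

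Strong HEB-alone peaks that no other list shared were narrow. There were 83, with a median width of 149 bp, against 312 bp for the 267 strong HEB-alone peaks shared with another list, and 52 of the 83 were under 200 bp wide. For E2A alone, 88 such peaks had a median width of 268 bp, against 354 bp for the 111 shared ones. The highest of the 83, named after its value was seen, was 134 bp wide in Rpl22, a ribosomal protein gene, with a score of 295. Rpl22 held 3 HEB-alone peaks in its span, of 67.5, 284 and 295, each under 200 bp wide, and that of 284 overlapped the DN3 HEB and CD73+ E2A lists. Other narrow peaks of this kind lay in Rin2 (62 bp, score 166) and Bzw2 (66 bp, score 143).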
